A study of Mus musculus with 24 samples.

Results

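The RNA of 9 genes for transcription factors of the hepatocyte was followed through 24 mouse livers. The genes were Nr1i3, Nr1i2, Ahr, Rxra, Hnf4a, Foxa2, Cebpa, Nr1h3 and Esr1. They were picked by name from 27802 genes, and all 9 were listed in each deposited table and passed the filter on low counts, which left 20213 genes for testing.

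The liver's response to foreign compounds runs through a few receptors that bind small molecules and switch on genes for oxidation, conjugation and export. The constitutive androstane receptor CAR (Nr1i3), the pregnane X receptor PXR (Nr1i2) and the liver X receptor alpha (Nr1h3) are nuclear receptors that act with the retinoid X receptor alpha (Rxra), whereas the aryl hydrocarbon receptor (Ahr) belongs to another family and acts with ARNT. The factors HNF4A, FOXA2 and C/EBP-alpha (Cebpa) hold the hepatocyte's own programme of gene expression, and the estrogen receptor alpha (Esr1) carries the response to estrogen.

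The livers came from a study of AgRP neurons in the arcuate nucleus that bear the angiotensin receptor AT1A. An adeno-associated virus with a caspase that Cre turns on was injected there in adult mice carrying Cre from the AT1A receptor gene (BAC-AT1A-Cre), and livers were frozen 2 weeks later, after housing at 22 °C or 30 °C from surgery onwards. The sources used here do not say what was injected into the controls, and the ablated cells are in the brain, so the liver RNA holds no check of the ablation. All mice were fed 2029x Teklad diet. The 22 °C groups held 3 mice for each sex and treatment, all of the line Ai39 x BAC-AT1A-Cre and Halo+/-. The 30 °C groups held 3 ablated mice of each sex, 4 female controls and 2 male controls. Of these, 7 were Ai39 x BAC-AT1A-Cre (Halo+/-), 3 were BAC-AT1A-Cre and 2 were Ai9 x BAC-AT1A-Cre (R+/- or R+/+), the last both ablated. All 12 ablated mice were Cre+, as were 4 of the 12 controls, while the other 8 were Cre-. At 22 °C 5 of the 6 controls were Cre-, among them all 3 control females. Ablation and Cre can thus hardly be told apart at 22 °C, and not at all within the females there. At 30 °C every control male was Cre+, as was 1 of the 4 control females. Among the 3 control males at 22 °C 1 was Cre+. Sex and temperature are thus partly mixed with Cre among the controls. The labels give each library its own replicate number, sex and genotype, n counts libraries, and p-values measure the spread between them.

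The libraries held 21691653 to 34851108 reads in genes. The mitochondrial genome took 7.53% to 37.3% of these reads, with ranges of 17.7% to 27.6% in ablated and 13.8% to 37.3% in control mice at 22 °C, and of 7.53% to 20.6% and 11.97% to 23.8% at 30 °C. The library of 30 °C control male 1 stood apart: 13702 genes had no read in it, and it lay at 187.37 on the first principal component while the others lay between -62.15 and 47.85. For some counts of calls, and some values of Nr1i3 and Foxa2, the value without this library is given beside the result. Other results moved without it too and are not all given, and the sex effect at 30 °C alone was not refitted without it. Leaving it out leaves 30 °C control male 2 as the lone control male there. The 12 hepatocyte markers summed to 69098 to 114770 CPM, reads scaled to a common library size, in every library, so the livers matched their label. In whole liver, fewer cells of a type and less RNA per cell cannot be told apart.

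Cebpa RNA was the most abundant of the 9 and Esr1 RNA the scarcest. Levels between genes were compared as the authors' FPKM, which divides reads by gene length. Cebpa stood at 159.8 ± 20.5 FPKM (SD, n = 24), Hnf4a at 73.2 ± 11.9 and Nr1i2 at 46.7 ± 10.8. The order then ran through the paired receptors. Nr1h3 had 38.3 ± 4.62 FPKM, Rxra 34.1 ± 6.29 and Nr1i3 20.5 ± 7.64. Foxa2 had 17.6 ± 5.77 FPKM, Ahr 5.50 ± 1.74 and Esr1 1.19 ± 0.574. Cebpa was above Hnf4a in 24 of 24 libraries, and Ahr was above Esr1 in 24 of 24. Nr1i2 and Nr1h3, Nr1h3 and Rxra, and Nr1i3 and Foxa2 lay closer to each other than the larger SD of each pair, with the first higher in 18 of 24 libraries each time. The spread over libraries, as SD over mean, was smallest for Nr1h3 (12.1%) and Cebpa (12.9%), and largest for Nr1i3 (37.2%) and Esr1 (48.2%).

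**Figure D1:**
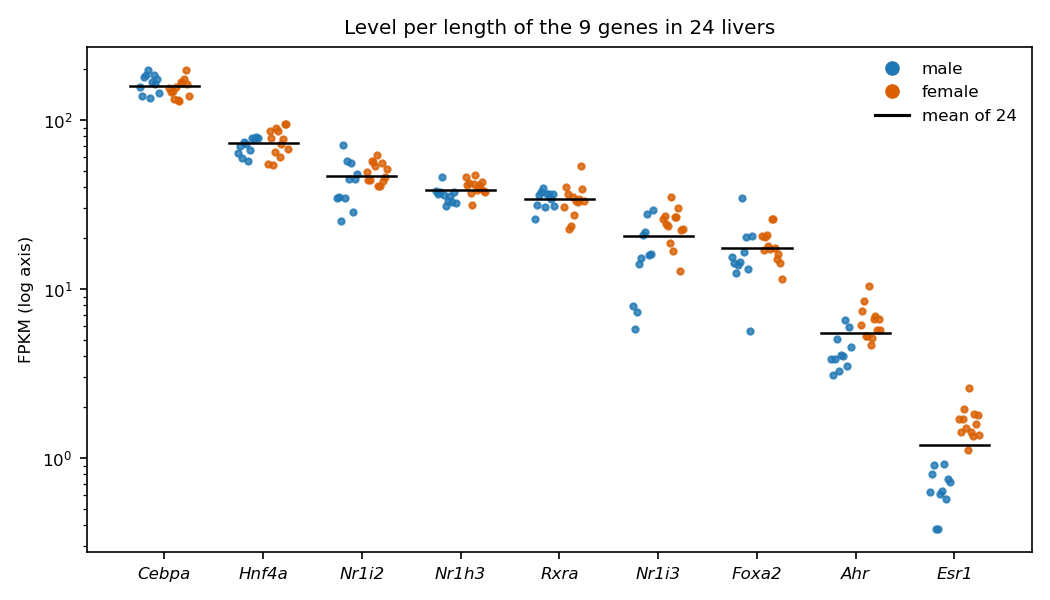
Level of each of the 9 genes in FPKM on a log axis, 1 point per liver (blue males, orange females) with the mean of 24 as a black line. Cebpa lies highest at a mean of 159.8 and Esr1 lowest at 1.19, and for Esr1 the female points lie above the male ones.

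Of the 9 genes, Esr1, Ahr and Nr1i3 differed between the sexes, and all 3 were higher in females. Females and males were compared over both temperatures and both treatments (13 females, 11 males) with edgeR's quasi-likelihood test, with p-values adjusted over the 20213 genes by the Benjamini-Hochberg method. Called here means an adjusted p under 0.05. In this comparison 5.54% of all genes were called, and 2.97% were called higher in females. Of the 9 genes 4 had an unadjusted p under 0.05, against 17.4% of all genes. Without 30 °C control male 1 the test called 832 genes in place of 1120, and Esr1, Ahr and Nr1i3 were called there too. The fourth gene was Nr1h3, with a log2 fold change, female over male, of 0.18 ± 0.09 (SE, adjusted p = 0.264). The other 5 were not called, with 0.20 ± 0.11 for Nr1i2, 0.23 ± 0.20 for Foxa2, 0.07 ± 0.09 for Hnf4a, -0.0082 ± 0.10 for Rxra and -0.09 ± 0.09 for Cebpa. For Foxa2 the value was 0.07 without 30 °C control male 1.

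Esr1 (ENSMUSG00000019768) lies on the plus strand at chr10:4561593-4955614 of GRCm39. The 300 bases of mouse GRCm38.p6 at chr10:4611739-4612038, plus strand, from 250 before to 50 after a transcription start listed by RefSeq (1 of 2 for the gene), are shown because Esr1 had the firmest difference of the 9. Capitals mark the 1 match, on the reverse strand, to the C/EBP letters TTGCNNAA, found in 10.8% of 32851 promoters of that length.
Esr1: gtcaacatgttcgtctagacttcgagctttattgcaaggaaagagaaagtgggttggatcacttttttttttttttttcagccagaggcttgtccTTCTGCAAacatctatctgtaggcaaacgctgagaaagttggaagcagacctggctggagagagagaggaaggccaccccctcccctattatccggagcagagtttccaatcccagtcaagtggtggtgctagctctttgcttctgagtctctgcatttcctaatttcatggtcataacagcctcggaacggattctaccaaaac

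In females Esr1 ranged from 14.9 to 35.3 CPM with a median of 22.5, and in males from 5.18 to 12.7 with a median of 8.82. Every female was thus above every male. The log2 fold change, female over male, was 1.31 ± 0.13 (SE, adjusted p = 1.3e-08, edgeR). It was 1.39 ± 0.18 among the mice at 22 °C alone (adjusted p = 4.33e-06), where 2.71% of all genes were called, and 1.22 ± 0.19 among those at 30 °C alone (adjusted p = 9.6e-05), where 3.1% were.

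Ahr (ENSMUSG00000019256, chr12:35547973-35585037, minus strand, GRCm39), the receptor for dioxins and related aromatic ligands, ranged from 28.7 to 63.0 CPM in females with a median of 38.4. In males it ranged from 19.3 to 40.9 CPM with a median of 24.9, so the sexes overlapped. The log2 fold change was 0.56 ± 0.11 (adjusted p = 0.000928). At 22 °C alone it was 0.85 ± 0.15 (adjusted p = 0.000584), and the 6 females (32.6 to 63.0 CPM) all lay above the 6 males (19.3 to 31.3 CPM). At 30 °C alone it was 0.27 ± 0.16 (adjusted p = 0.388).

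Nr1i3 (ENSMUSG00000005677) lies on the plus strand at chr1:171041539-171048270 of GRCm39. The 300 bases of GRCm38.p6 at chr1:171213720-171214019, plus strand, from 250 before to 50 after the start listed by RefSeq, are shown because Nr1i3 had the lowest p of the 9 for ablation at 22 °C and for temperature in ablated mice. Capitals mark its 1 match to the E-box letters CACGTG, found in 7.15% of 32851 promoters of that length.
Nr1i3: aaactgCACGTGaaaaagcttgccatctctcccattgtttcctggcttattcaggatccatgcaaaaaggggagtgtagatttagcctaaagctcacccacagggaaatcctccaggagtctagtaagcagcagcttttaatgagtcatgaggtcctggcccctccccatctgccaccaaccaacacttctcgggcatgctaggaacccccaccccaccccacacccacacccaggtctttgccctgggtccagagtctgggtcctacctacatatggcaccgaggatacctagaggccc

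Promoters were found for 8 of the 9 genes and searched on both strands for 5 motifs, and a match is no more than a run of these letters. The nuclear receptor half-site AGGTCA, in 16.3% of all promoters, had 2 matches in 1 window of Rxra and none in any other member's. The AHR core GCGTG, in 32.4% of all promoters, was found in windows of Foxa2 and in 1 window of Esr1. The forkhead letters TGTTTAC, in 3.65% of all promoters, were found in none of the members' windows.

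Over all mice, Nr1i3 ranged from 57.8 to 150.5 CPM in females with a median of 109.8, and from 25.6 to 129.7 in males with a median of 70.0. The sexes overlapped. The log2 fold change was 0.64 ± 0.14 (adjusted p = 0.0038), and 0.63 with an adjusted p of 0.0732 when sex was an additive term. At 22 °C alone it was 1.24 ± 0.19 (adjusted p = 0.000155), and at 30 °C alone 0.04 ± 0.20 (adjusted p = 0.993). At 22 °C the mean was 114.7 ± 22.3 CPM in females and 53.0 ± 26.1 in males (SD, n = 6 each). At 30 °C it was 101.5 ± 27.4 in females (n = 7) and 98.4 ± 27.9 in males (n = 5). The difference of the sex effect between temperatures, a comparison chosen after these values were seen, was 1.2 ± 0.27 on the log2 scale with an adjusted p of 0.107 in edgeR. That test called 0.0198% of all genes and none of the 9, of which Nr1i3 and Ahr had an unadjusted p under 0.05, against 10.9% of all genes. For Nr1i3 the adjusted p was 0.0108 with DESeq2 in place of edgeR and 1.69e-05 with no filter on low counts. It was 0.168 with a term for Cre and 0.175 with a replicate block, both in edgeR. Without 30 °C control male 1 the difference was 1.38. For Ahr the difference was 0.58 ± 0.22 (adjusted p = 0.326).

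**Figure D2:**
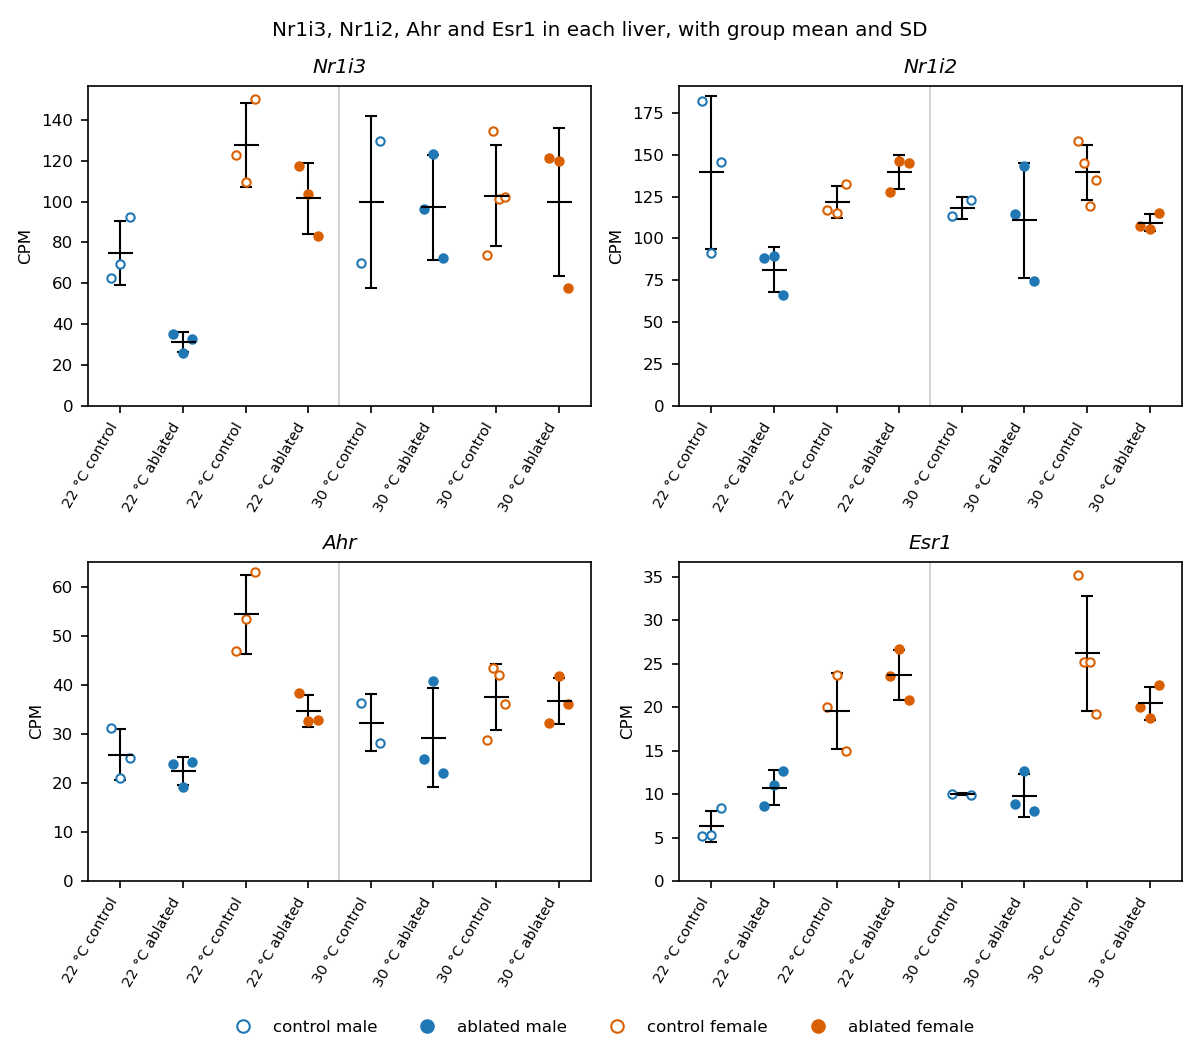
CPM of Nr1i3, Nr1i2, Ahr and Esr1 in each liver by temperature, treatment and sex (blue males, orange females, filled ablated, open control), with the mean and SD of each group. Nr1i3 lies at 25.6 to 34.97 in ablated males at 22 °C, below every other liver, and Esr1 is higher in every female than in every male.

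Ablation was compared with control at 22 °C as the mean of the effects in both sexes (6 ablated, 6 control). None of the 9 genes was called with edgeR, where 0.094% of all genes were, and 5 had an unadjusted p under 0.05, against 8.34% of all genes. With DESeq2, or with no filter on low counts, 1 of the 9 was called, Nr1i3. The estimates of 8 genes were below 0 and that of Esr1 was above 0. The ablated mice at 22 °C also entered the comparison of temperatures in ablated mice, so those 2 comparisons share 6 libraries. Groups as small as those of 1 sex and treatment can fail to overlap by chance. The share of all genes that do so was not counted, so a lack of overlap below is a description.

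Nr1i3 RNA was lowest in the ablated males kept at 22 °C. They had 34.97, 25.6 and 32.8 CPM, against 62.5, 69.2 and 92.6 in control males at 22 °C. Ablated females at 22 °C had 117.6, 104.0 and 83.2 CPM and control females 122.9, 109.8 and 150.5. The males did not overlap and the females did. Over both sexes the log2 fold change was -0.80 ± 0.19 (unadjusted p = 0.000301, adjusted p = 0.121, edgeR), the gene of rank 50 by p. It had the same size with DESeq2 (adjusted p = 0.0179) and with no filter (adjusted p = 3.43e-05), and -0.65 ± 0.30 (adjusted p = 1) with a term for Cre. In males alone, where 0.094% of all genes and none of the 9 were called, it was -1.26 ± 0.27 (adjusted p = 0.0772). In females alone, where 0.0297% of all genes and none of the 9 were called, it was -0.33 ± 0.27 (adjusted p = 1). The difference between the sexes, 0.93 ± 0.38, had an adjusted p of 0.753.

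Nr1i3 overlaps Tomm40l, a protein-coding gene on the other strand, and the sources used here do not say whether reads were counted by strand. Reads of the shared stretch cannot be told apart without it. Tomm40l had 24 to 693 reads per library and Nr1i3 607 to 4034. In ablated males at 22 °C Tomm40l had 139, 87 and 169 reads, and in control males there 221, 224 and 140. Its own log2 fold change for ablation at 22 °C was -0.82 ± 0.41 (adjusted p = 0.614).

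Nr1i2 (ENSMUSG00000022809, chr16:38068685-38115186, minus strand, GRCm39) had the lowest p of the 9 for a difference of the ablation effect between the sexes at 22 °C. Ablated males had 88.3, 89.6 and 65.9 CPM and control males 181.9, 91.0 and 145.5. These did not overlap, but 89.6 and 91.0 nearly met. Ablated females had 127.8, 146.1 and 145.1 CPM and control females 117.3, 114.9 and 132.8, with overlap and the higher mean in the ablated. The log2 fold change was -0.78 ± 0.21 in males alone (adjusted p = 0.229) and 0.20 ± 0.21 in females alone (adjusted p = 1). The difference, 0.98 ± 0.30, had an unadjusted p of 0.00289 and an adjusted p of 0.491. In that comparison 0% of all genes and none of the 9 were called with edgeR. Nr1i3 and Nr1i2 had an unadjusted p under 0.05, against 6.26% of all genes. DESeq2 called 56 genes there, none of them among the 9. The other 7 genes ranged from -0.50 ± 0.35 (Esr1) to 0.71 ± 0.56 (Foxa2).

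Of the other receptors at 22 °C, Ahr had a log2 fold change of -0.43 ± 0.15 for ablation (adjusted p = 0.402). Ablated females had 38.4, 32.6 and 32.9 CPM of Ahr, below the 46.9, 53.4 and 63.0 of control females, whereas ablated males (23.9, 19.3 and 24.3) overlapped control males (31.3, 20.9 and 25.1). Rxra (ENSMUSG00000015846, chr2:27566452-27652969, plus strand), the shared partner, was at 181 ± 34.1 CPM in ablated and 234 ± 26.3 in control mice (SD, n = 6 each). Its log2 fold change was -0.38 ± 0.14 (adjusted p = 0.447). Nr1h3 (ENSMUSG00000002108, chr2:91014406-91033179, minus strand), which switches on genes of sterol export and fatty acid synthesis, had -0.07 ± 0.12 (adjusted p = 0.968). Esr1 had 0.52 ± 0.17 (adjusted p = 0.349). In males it was at 8.59, 11.04 and 12.7 CPM in ablated and 5.18, 5.32 and 8.36 in control mice, and in females the treatments overlapped.

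The hepatocyte factors showed no called change with ablation at 22 °C. Hnf4a (ENSMUSG00000017950, chr2:163348728-163414830, plus strand) was at 299.6 ± 29.6 CPM in ablated and 373 ± 56.3 in control mice, a log2 fold change of -0.31 ± 0.13 (adjusted p = 0.51). In females it was at 270.0, 263.0 and 318 CPM in ablated and 431, 388 and 422 in control mice, with no overlap. The log2 fold change in females alone was -0.54 ± 0.18 (adjusted p = 0.605, edgeR). In males the treatments overlapped. Cebpa (ENSMUSG00000034957, chr7:34818718-34821353, plus strand) was level at 409 ± 45.4 and 420.3 ± 78.2 CPM, with -0.03 ± 0.13. Foxa2 (ENSMUSG00000037025, chr2:147884797-147888889, minus strand) had -0.23 ± 0.28. Among control males at 22 °C it was at 33.1, 35.5 and 82.4 CPM, and without the last the estimate was 0.05, while a term for Cre gave 0.41.

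At 30 °C none of the 9 genes passed the test for ablation. None was called with edgeR or DESeq2, none had an unadjusted p under 0.05, and edgeR called 0% of all genes, with 6.96% at an unadjusted p under 0.05. Nr1i3 was at 96.3, 123.6 and 72.1 CPM in ablated and 70.0 and 129.7 in control males. It was at 121.6, 119.8 and 57.8 CPM in ablated and 73.7, 134.5, 101.1 and 102.3 in control females. The treatments overlapped in both sexes, and the log2 fold change was -0.04 ± 0.20, or -0.22 ± 0.21 (adjusted p = 0.927) without 30 °C control male 1. Nr1i2 had -0.22 ± 0.16, with 107.4, 105.5 and 115.2 CPM in ablated females, below the 119.5 to 158.6 of control females, and overlap in males. Rxra had 0.18 ± 0.15, and its value of 348 CPM in ablated female 3 stood above the other 23 libraries. Foxa2 had 0.31 ± 0.29, and -0.01 ± 0.25 without 30 °C control male 1, where Foxa2 was lowest at 13.2 CPM. The other 5 genes had -0.09 ± 0.16 (Ahr), -0.07 ± 0.13 (Hnf4a), -0.19 ± 0.18 (Esr1), 0.19 ± 0.14 (Cebpa) and 0.0040 ± 0.12 (Nr1h3).

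The ablation effect was then compared between temperatures. None of the 9 was called with edgeR or DESeq2, and edgeR called 0% of all genes. Of the 9 genes 3 had an unadjusted p under 0.05, against 7% of all genes. Nr1i3 had a difference, 22 °C minus 30 °C, of -0.76 ± 0.27 on the log2 scale (adjusted p = 0.626), or -0.58 ± 0.27 (adjusted p = 0.825) without 30 °C control male 1. Rxra had -0.56 ± 0.20 (adjusted p = 0.626) and Esr1 0.72 ± 0.25 (adjusted p = 0.602). The other 6 ranged from -0.54 ± 0.40 (Foxa2) to -0.07 ± 0.22 (Nr1i2). The difference between the sexes in the ablation effect at 30 °C called none of the 9 with edgeR or DESeq2 and 0% of all genes with edgeR, and none of the 9 had an unadjusted p under 0.05, against 6.64% of all genes. The differences, female minus male, ranged from -0.33 ± 0.36 (Esr1) to 0.15 ± 0.29 (Rxra).

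**Figure D3:**
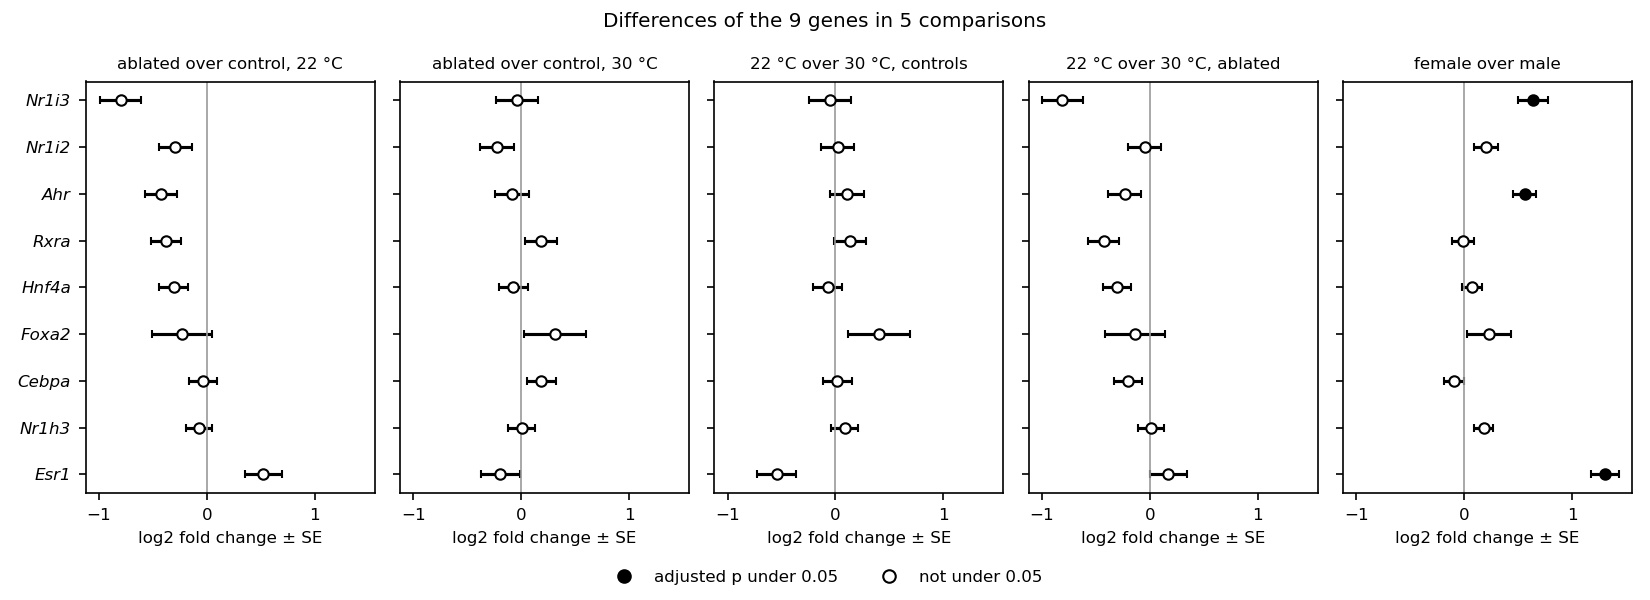
Log2 fold change with its SE (edgeR) for the 9 genes in 5 comparisons, with filled points where the adjusted p was under 0.05. The filled points are Nr1i3, Ahr and Esr1 in the comparison of females with males, and Nr1i3 lies at -0.80 for ablation at 22 °C and at -0.81 for 22 °C against 30 °C in ablated mice.

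Housing at 22 °C was compared with 30 °C separately in ablated and in control mice. In ablated mice (6 at each temperature) none of the 9 was called with edgeR, where 0.0346% of all genes were, and 3 had an unadjusted p under 0.05, against 9.78% of all genes. DESeq2 called 1, Nr1i3, and so did edgeR with no filter. The ablated males at 22 °C (25.6 to 34.97 CPM of Nr1i3) lay below the ablated males at 30 °C (72.1 to 123.6), whereas ablated females overlapped at 83.2 to 117.6 and 57.8 to 121.6. Over both sexes the log2 fold change was -0.81 ± 0.19 (adjusted p = 0.101, edgeR), with an adjusted p of 0.0167 in DESeq2, 2.34e-05 with no filter and 0.0353 without 30 °C ablated female 3. The adjusted p in edgeR was 0.125 with a term for Cre, 0.164 with a replicate block and 0.398 with sex as an additive term. In the line Ai39 x BAC-AT1A-Cre alone, fitted with sex as an additive term, it was -0.80 ± 0.31 and not called. Rxra had -0.43 ± 0.14 (adjusted p = 0.311), and Hnf4a -0.31 ± 0.13 (adjusted p = 0.438). The other 6 genes ranged from -0.23 ± 0.15 (Ahr) to 0.17 ± 0.17 (Esr1).

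In control mice (6 at each temperature) none of the 9 was called with edgeR or DESeq2, where edgeR called 0.0346% of all genes (7 genes, and 0 without 30 °C control male 1), and 1 had an unadjusted p under 0.05, against 12.6% of all genes. That gene was Esr1, with -0.55 ± 0.18 (adjusted p = 0.233). Control males had 5.18, 5.32 and 8.36 CPM of Esr1 at 22 °C and 10.1 and 9.94 at 30 °C. Control females had 20.05, 23.7 and 14.9 CPM at 22 °C and 35.3, 25.2, 25.2 and 19.3 at 30 °C. The males did not overlap and the females did. Nr1i3 had -0.05 ± 0.20, or -0.24 ± 0.21 (adjusted p = 0.928) without 30 °C control male 1, and Nr1i2 had 0.02 ± 0.16. Rxra, Hnf4a, Ahr, Cebpa and Nr1h3 ranged from -0.07 ± 0.13 (Hnf4a) to 0.13 ± 0.15 (Rxra). Foxa2 had 0.40 ± 0.29 (adjusted p = 0.582). Leaving out 30 °C control male 1 gave 0.08 ± 0.25 and leaving out 22 °C control male 3 gave 0.13. The value was 0.05 with a term for Cre and 0.13 in the line Ai39 x BAC-AT1A-Cre alone, fitted with sex as an additive term. Without 30 °C control male 2, which leaves male 1 as the lone control male there, it was 1.04 (adjusted p = 0.0213).

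**Figure D4:**
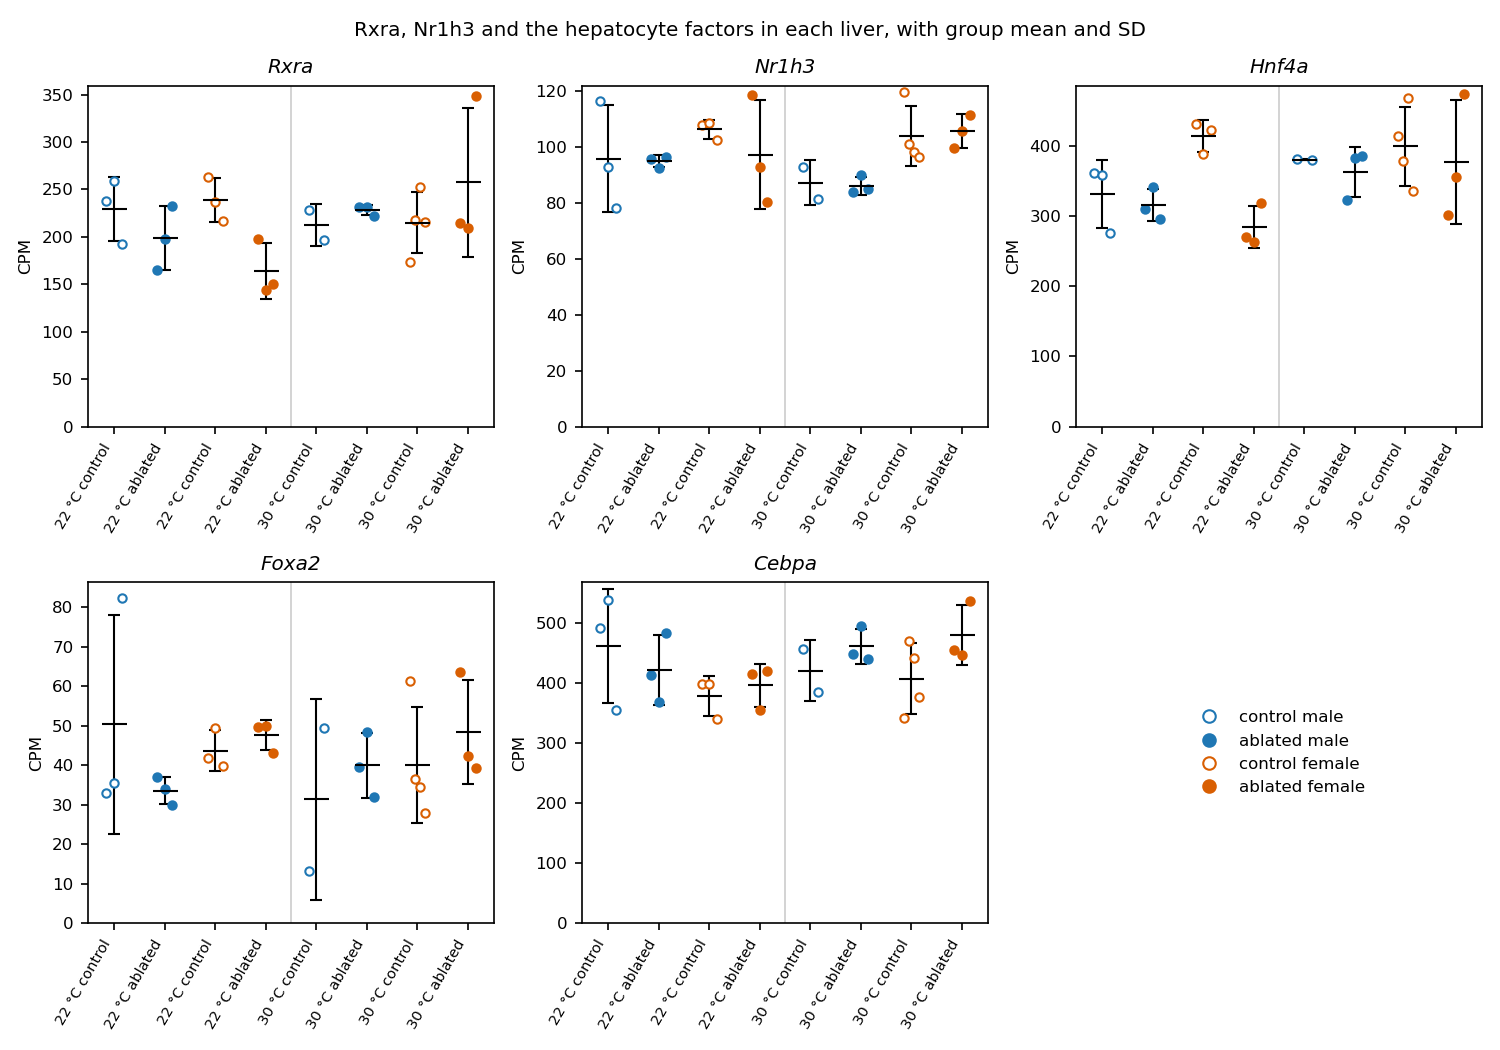
CPM of Rxra, Nr1h3, Hnf4a, Foxa2 and Cebpa in each liver by temperature, treatment and sex, drawn like the plot of the receptors, with the mean and SD of each group. Many groups overlap, but not all. At 22 °C Hnf4a and Rxra are lower in each ablated female than in each control female. At 30 °C Nr1h3 is higher in every female than in every male. Foxa2 lies at 82.4 in 22 °C control male 3 and at 13.2 in 30 °C control male 1, and Rxra at 348 in 30 °C ablated female 3.

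Genes known as targets of the 9 factors were taken from lists. For every list below, the shares over all genes to read its counts against are 0.0445% called higher and 0.0495% lower for ablation at 22 °C, 0.0346% called for temperature in ablated mice, and 2.97% called higher and 2.57% lower for sex. The shares at an unadjusted p under 0.05 are 8.34% for ablation at 22 °C, 6.96% at 30 °C and 9.78% for temperature in ablated mice. With a term for Cre no gene was called for ablation at 22 °C. Each such call below, of Gsta2, Gsta1, Scd2 and Ces3a, was thus lost there. As 5 of the 6 controls at 22 °C were Cre-, that term leaves little to estimate ablation from, and the loss does not tell the 2 apart. With the line Ai39 x BAC-AT1A-Cre alone none was called for temperature in ablated mice. That setting also took sex as an additive term and held 3 ablated mice at 30 °C. Of 32 CAR targets, 1 rose with ablation at 22 °C and none fell, and 16 estimates were above 0 and 16 below. An unadjusted p under 0.05 (edgeR) was found for 16 of the 32, against 8.34% of all genes. The one that rose was Gsta2, an alpha-class glutathione transferase, at 43.9 ± 22.8 CPM in ablated and 9.65 ± 4.31 in control mice (SD, n = 6 each, log2 fold change 2.27 ± 0.30, adjusted p = 0.00232). The list's median log2 fold change was -0.02, against 0.02 over all genes. In ablated mice none of the 32 was called for temperature with edgeR, and 13 had an unadjusted p under 0.05, against 9.78% of all genes. Those of lowest p were the P450 genes Cyp2c54 (-2.29 ± 0.43, adjusted p = 0.0576), Cyp2c50 (-1.53 ± 0.32, adjusted p = 0.0793) and Cyp2c37 (-1.70 ± 0.38, adjusted p = 0.115). The list's median was -0.225, against 0.0021 over all genes.

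Between the sexes, 10 of the 32 CAR targets were higher and 4 lower in females, against 2.97% and 2.57% of all genes. The P450 gene Cyp2b9 stood at 359 ± 56.7 CPM in females and 14.5 ± 27.6 in males, and Cyp2b13 at 263 ± 134 and 0.748 ± 1.40 (SD, n = 13 and 11). Cyp2c37 stood at 682 ± 255 CPM in females and 246 ± 150 in males. Lower in females were Aldh1a7, Sult2a8, Ugt2b35 and Ces2a, with log2 fold changes from -1.15 to -0.37. The families of Cyp2b, Cyp2c, Cyp3a and Gsta genes hold near copies, and the sources used here do not say how reads shared between copies were assigned, so single members are uncertain.

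Of 23 PXR targets tested, Gsta1 rose with ablation at 22 °C, from 0.488 ± 0.547 to 20.4 ± 20.9 CPM (adjusted p = 0.0334), and none fell. An unadjusted p under 0.05 (edgeR) was found for 7 of the 23, against 8.34% of all genes. Between the sexes 7 were higher and 3 lower in females, against 2.97% and 2.57% of all genes, among them the female-specific Cyp3a16, Cyp3a41a and Cyp3a44 and the transporter gene Slco1a4 (1.76 ± 0.26). Cyp2b10 and Por among the higher, and Aldh1a7 and Ces2a among the lower, were counted with the CAR targets too. Of 16 AHR targets tested, Gsta1, also in this list, was the 1 called with ablation at 22 °C, where 5 had an unadjusted p under 0.05. Between the sexes 5 were higher in females and none lower, against the same shares. These included Htatip2 (0.50 ± 0.10), Tnfaip8l3 (1.10 ± 0.27) and Nqo1 (0.81 ± 0.22), a quinone reductase. Of 20 LXR targets, Scd2, a fatty acid desaturase, rose with ablation at 22 °C (2.60 ± 0.42, adjusted p = 0.00579), where 4 had an unadjusted p under 0.05. Between the sexes 1 was higher and 2 were lower in females.

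Of 29 HNF4A targets tested, the carboxylesterase gene Ces3a fell with ablation at 22 °C (-1.03 ± 0.19, adjusted p = 0.0097) and was lower at 22 °C in ablated mice (-1.04 ± 0.19, adjusted p = 0.0137), calls lost with a term for Cre and in the 1 line alone respectively. The medians of this list were -0.13 and -0.21, against 0.02 and 0.0021 over all genes, with 21 and 25 of 29 estimates below 0. In these 2 comparisons 5 and 7 of the 29 had an unadjusted p under 0.05 (edgeR), against 8.34% and 9.78% of all genes. Between the sexes 3 were higher, with Nr1i3 itself among them, and 3 lower in females. None of the 23 targets of FOXA2 and C/EBP-alpha tested was called with ablation at 22 °C in edgeR, where 1 had an unadjusted p under 0.05, and 2 were higher and 1 lower in females. Of 12 estrogen-responsive genes tested, none was called with ablation at 22 °C in edgeR, where 4 had an unadjusted p under 0.05. In that list 2 were higher in females, Cyp17a1 (4.16 ± 0.23) and angiotensinogen, Agt (0.63 ± 0.10), and 3 were lower, Cyp7b1, Susd4 and Tff3. Cyp7b1 was also the 1 lower among the targets of FOXA2 and C/EBP-alpha. Ablation at 30 °C called no member of these lists with edgeR.

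**Figure D5:**
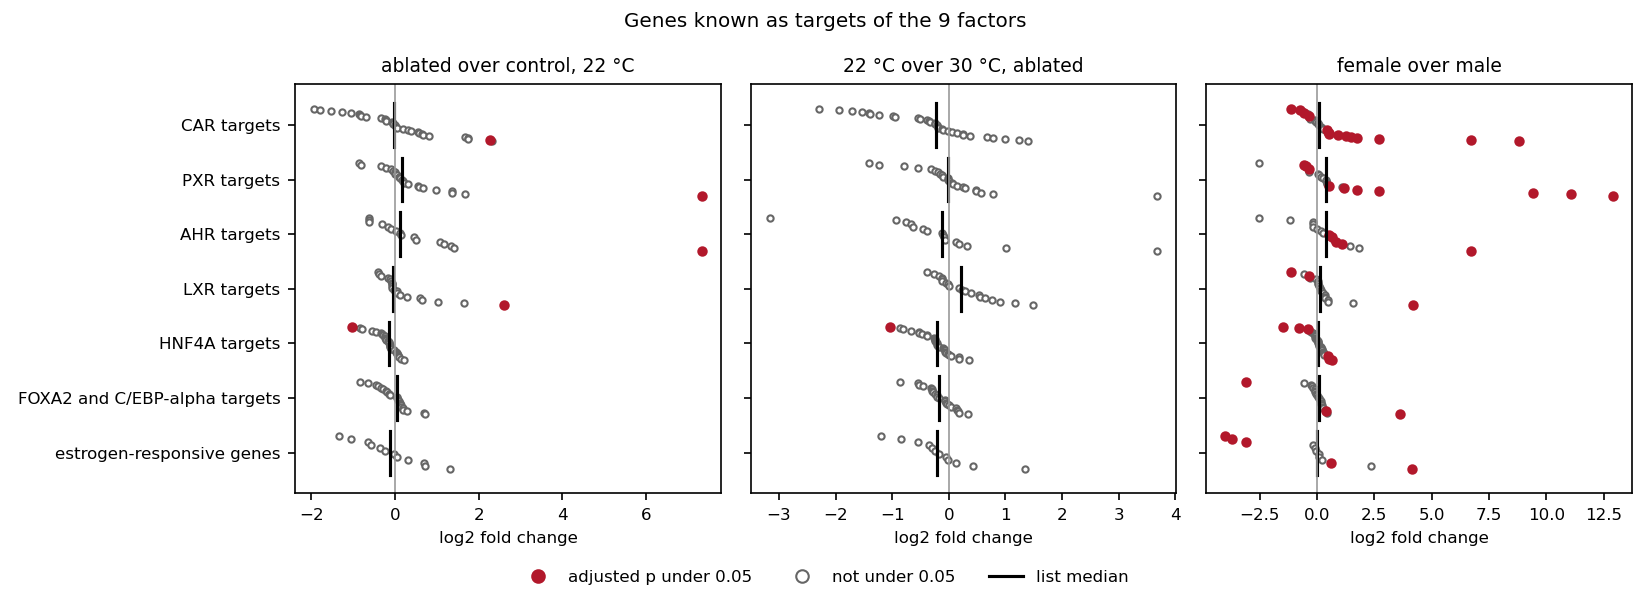
Log2 fold change (edgeR) of each tested target gene in 7 lists for ablation at 22 °C, for 22 °C against 30 °C in ablated mice and for females against males, with red points at an adjusted p under 0.05 and a black line at the list's median. Red points are 1 or none per list in the first 2 panels and between 3 and 14 per list in the third.

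Of the 42 tested genes of the nuclear receptor superfamily, 6 of which are among the 9, none was called with ablation at either temperature in edgeR. At an unadjusted p under 0.05 there were 6 at 22 °C and 0 at 30 °C, against 8.34% and 6.96% of all genes. Between the sexes 5 were higher in females and none lower, and Esr1 and Nr1i3 were 2 of them. Also among them were the retinoid X receptor gene Rxrg (1.07 ± 0.18) and Esrrg (1.62 ± 0.50). Of 28 other liver-enriched factors, which include Ahr, Cux2 was higher in females, at 248 ± 158 CPM against 1.98 ± 1.37 in males, and Bcl6 was lower (-1.73 ± 0.23, adjusted p = 6.64e-05). Of 25 partners and coregulators of the receptors, Ppargc1a was the 1 called between the sexes (0.65 ± 0.13, higher in females), and none was called with ablation at either temperature in edgeR, with 3 and 0 at an unadjusted p under 0.05, against the same shares.

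Markers of other liver cells were read in the same libraries. With ablation at 22 °C the median log2 fold change was 0.91 for the 9 tested of 10 cholangiocyte markers, 0.55 for 12 stellate and fibroblast markers, 0.38 for 12 macrophage markers, 0.63 for 12 lymphocyte markers and 0.12 for 12 endothelial markers, with none called. Summed over each list, cholangiocyte markers were at 59.6 to 255 CPM in ablated and 59.0 to 95.03 in control mice. Stellate and fibroblast markers were at 169 to 394 and 109 to 212 CPM, and macrophage markers at 103 to 402 and 211 to 266. The 12 hepatocyte markers had a median of -0.15, with 9 of 12 estimates below 0. For 22 °C against 30 °C in ablated mice the medians were 1.02 for stellate and fibroblast markers, 0.71 for cholangiocyte markers and 0.56 for lymphocyte markers. They were 0.52 for endothelial, 0.23 for macrophage and -0.23 for hepatocyte markers, with none called in these lists. Of the 12 stellate and fibroblast markers 7 had an unadjusted p under 0.05 (edgeR), against 9.78% of all genes. Erythroid markers (7 of 8 measured) summed to 137 to 147 CPM in the ablated males at 22 °C, where Nr1i3 and Nr1i2 were low, and to 261 to 517 in control males and 337 to 884 in ablated females there. In control females at 30 °C they summed to 143 to 340 CPM, with Nr1i3 at 73.7 to 134.5 CPM and Nr1i2 at 119.5 to 158.6. No marker of these lists was at 0 in every library. The part of other cell types in the values of the 9 genes was not tested.

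Pairs of a factor and a known target were related across the 24 libraries in log2 CPM, for 6 pairs, with permutation p-values adjusted over the 6. None passed on Pearson's r. Nr1h3 and Srebf1, the gene of a lipogenic factor that LXR activates, had r = 0.434 (adjusted permutation p = 0.0505) and Spearman's rho = 0.551 (adjusted permutation p = 0.0364), and r = 0.449 without the 2 libraries farthest from the median of Nr1h3. Within 22 °C this r was 0.378 and within 30 °C 0.626, in males 0.571 and in females 0.403. Nr1i3 and Cyp2b10, the classic CAR target, had r = 0.455 and rho = 0.376 (adjusted permutation p = 0.0505 and 0.108), with r = 0.27 without the 2 farthest libraries. Within 22 °C this r was 0.626 (unadjusted permutation p = 0.0302) and within 30 °C 0.023 (unadjusted permutation p = 0.943). In males it was 0.384 and in females -0.279 (unadjusted permutation p = 0.245 and 0.345), so it passed in neither sex alone. The 22 °C value was taken over both sexes. Cyp2b10 itself was at 0.815 ± 0.874 CPM in males and 3.88 ± 2.57 in females. Nr1i2 and Cyp3a11, the main PXR target, ran in opposite directions with r = -0.448 and rho = -0.455 (adjusted permutation p = 0.0505 and 0.0634), and r = -0.503 without the 2 farthest. Cebpa and the urea cycle gene Cps1 had r = 0.456 and rho = 0.442 (adjusted permutation p = 0.0505 and 0.0634). Ahr and Cyp1a2 had r = 0.256 and rho = 0.157, and Hnf4a and Apoc3 r = 0.144 and rho = 0.243.

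The protein-coding genes whose log2 CPM ran most alike with each of the 9 over the 24 libraries were picked by Spearman's rho among 8149 genes, as a description. For Nr1i3 they were Tomm40l, its overlapping neighbour (0.869), Ces1d (0.805) and Plpp3 (0.757). For Ahr they were Lgr5 (0.835), Cyp2c37 (0.781) and Akr1c20 (0.78). For Esr1 they were Cyp2a4 (0.865), Cux2 (0.863) and Papss2 (0.85). For Rxra Eif4a1 came first (0.833), for Nr1h3 Pih1d1 (0.83), for Hnf4a Herpud1 (0.796), for Nr1i2 Brca2 (0.795), for Cebpa Nfix (0.77) and for Foxa2 Coro7 (0.755). Among the 9 themselves, Nr1i3 and Ahr had rho = 0.685, Rxra and Cebpa 0.622, Ahr and Esr1 0.592 and Rxra and Hnf4a 0.587. All libraries share the sexes and the scaling, so such values carry the difference between females and males as well.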

How the data were processed

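Poly-A RNA of 24 mouse livers was sequenced. CASAVA, HISAT2, DESeq2 and the build GRCm39 (mm39) are named per the submitters' processing notes, without versions. The 3 deposited tables give, per the file headers, raw read counts per gene, FPKM and normalized counts for 12 libraries each. The authors' FPKM values were found to be scaled by a library size proportional to each library's DESeq2 size factor. The normalized values, a signal that the authors made by dividing counts by 1 size factor per library, were not used for any result. Gene lengths are those the authors deposited, and the sources used here state no strand or multi-mapping rule.

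The tables (25892, 25229 and 25027 genes) were joined to 27802 genes, with 40326 missing values set to 0. A table lists no gene with fewer than 2 reads in all, and counts of libraries in 2 tables were identical. Libraries held 21691653 to 34851108 reads in genes, and replicates of a group differed by more than sampling noise. Counts were tested with edgeR 4.0.16 (quasi-likelihood with robust dispersions, TMM, filterByExpr, 16 residual degrees of freedom) in R 4.3.3 with limma 3.58.1, on 8 group means, over 20213 genes. Effects were averaged over the sexes, the SE was taken as the absolute log2 fold change divided by root F, and p-values were adjusted by Benjamini and Hochberg at 0.05. The fit was tested on simulated data with 200 changed genes. Correlations used 100000 permutations in scipy 1.17.1, on log2 CPM with a prior count of 2, and the 7th pair planned was left out because its target fell below the filter. Alternatives were DESeq2 1.42.0, its size factors, no filter, a replicate block, sex as an additive term, a term for Cre, no mitochondrial genes, 1 mouse line alone and each library left out. Likeness was computed for protein-coding genes with a mean log2 CPM of at least 3. Promoters are from RefSeq on GRCm38.p6 and were not mixed with the files' coordinates.

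The 9 genes and the lists were chosen with earlier results of these data known. All 9 were fitted in every comparison, and those not named singly are given by their range. Of a list, called members were named, up to 4 of lowest p in each direction, and where none was called up to 3 of lowest p. Some called list members are not reported here. The split by sex, the split by temperature and the difference of the sex effect between temperatures were added after seeing the data.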

Additional observations from a re-analysis of the deposited data

Results flagged for a closer look

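Of 45 sets of 4 or 6 libraries examined for a single library far from the rest, 2 were picked out, and chance picks about 1 in 20. Rxra in ablated mice at 30 °C stood at 348.3 CPM in ablated female 3, while the other 5 lay between 209 and 232. Foxa2 in control mice at 22 °C stood at 82.4 CPM in control male 3, while the other 5 lay between 33.1 and 49.4.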

How the results depend on the processing

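With no filter on low counts, the numbers of genes called were 400 for ablation at 22 °C, 74 for ablation at 30 °C, 273 for temperature in controls, 493 for temperature in ablated mice, 191 for the ablation effect between temperatures, 249 and 98 for the ablation effect between sexes at 22 °C and 30 °C, and 396 for the sex effect between temperatures. With DESeq2 in place of edgeR they were 144, 43, 268, 159, 14, 56, 48 and 194 in that order, with its own filter changed together with the tool. In both settings 1 of the 9 genes, Nr1i3, was called for ablation at 22 °C, for temperature in ablated mice and for the sex effect between temperatures. The cause of these differences was not tested. With no filter the median over all genes of the sex effect between temperatures was -0.11, against -0.07.

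With a term for Cre the count was 0 for ablation at 22 °C, 1 for temperature in controls and 2 for the sex effect between temperatures. With sex as an additive term it was 2 for temperature in controls. With the line Ai39 x BAC-AT1A-Cre alone it was 1 for temperature in controls, 0 for temperature in ablated mice and 744 for sex. The line alone was fitted with sex as an additive term, so the mice and the model changed together. Same-numbered libraries did not deviate together (mean correlation -0.005 over 77 pairs, from -0.141 to 0.096). They were not treated as pairs in the main fit, though this check cannot show that they share only a number. A replicate block gave 1 gene for temperature in controls and 2 for the ablation effect between sexes at 22 °C, and moved Nr1i3 to 0.0002 and Cebpa to -0.0026 for temperature in controls.

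Signs changed as follows, for values that had passed no test. For ablation at 22 °C, Foxa2 had 0.41 with a term for Cre and Nr1i2 0.20 in females alone. For ablation at 30 °C, Nr1i3 had 0.0591 with additive sex, 0.0243 with a term for Cre and 0.0241 in the 1 line, Esr1 had 0.0019 with a term for Cre, and Nr1h3 had -0.0172 with DESeq2 size factors and with DESeq2, -0.0091 with additive sex, -0.0525 with a term for Cre and -0.0345 in the 1 line. For temperature in controls, Nr1i3 had 0.0189 with additive sex and Nr1i2 -0.0331 in the 1 line, and for temperature in ablated mice Nr1i2 had 0.0213 in the 1 line. For sex, Rxra had 0.0022 with a term for Cre and 0.0953 at 30 °C alone, where Cebpa had 0.0058. The correlation of Nr1i3 and Cyp2b10 was -0.279 in females, and that of Hnf4a and Apoc3 was -0.034 at 30 °C and -0.098 in females. Of the other values of single genes and pairs, 417 kept their direction and side of the threshold, 9 passed it in addition and 3 no longer did.

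Leaving out 1 library at a time gave 12 to 49 genes for ablation at 22 °C, 0 to 807 for ablation at 30 °C, 0 to 1608 for temperature in controls, 2 to 35 for temperature in ablated mice, 0 to 457 for the ablation effect between temperatures, 832 to 2197 for sex, 0 to 5 and 0 to 794 for the ablation effect between sexes at 22 °C and 30 °C, and 0 to 539 for the sex effect between temperatures. For ablation at 22 °C the 49 came without ablated male 3 and the 12 without ablated male 2 or ablated female 3, and for temperature in ablated mice the 35 came without 30 °C ablated female 2 and the 2 without 22 °C ablated male 2. The counts of 807, 1608, 457, 2197, 794 and 539 came without 30 °C control male 2, which leaves the library that stood apart alone in its group, where it is assumed to vary like the others. Of the 9 genes, 0 to 1 were called for temperature in controls, in ablated mice and for the sex effect between temperatures, and 3 to 4 for sex. Signs changed within the ranges for ablation at 22 °C of Cebpa (-0.113 to 0.0279), Foxa2 (-0.35 to 0.0468) and Nr1h3 (-0.155 to 0.0063), and for ablation at 30 °C of Ahr (-0.245 to 0.0197), Foxa2 (-0.0079 to 0.94), Nr1h3 (-0.0367 to 0.062) and Nr1i3 (-0.22 to 0.22). They also changed for sex of Rxra (-0.0783 to 0.0261), for temperature in ablated mice of Nr1h3 (-0.0737 to 0.0705) and Nr1i2 (-0.157 to 0.0663), and for temperature in controls of Cebpa (-0.0466 to 0.094), Nr1i2 (-0.0923 to 0.136) and Nr1i3 (-0.24 to 0.21). The line alone was not run for ablation at 22 °C, where all mice were of it, or for the ablation effect between sexes. Groups of 2 to 4 libraries limit how small a difference these tests can call.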
